A study of Arabidopsis thaliana with 8 samples.

Results

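ARR15 (AT1G74890) and ARR16 (AT2G40670) are 2 of the type-A response regulator genes of Arabidopsis thaliana. Their transcripts were followed on 8 Affymetrix arrays in 2 systems meant to raise the NAC transcription factor ORE1. The members are the probe sets that the platform's probe table gives to these loci. Each gene has 1 probe set, 262212_at for ARR15 and 266078_at for ARR16, which the table lists under its other symbol RR16. They are 2 of 22810 probe sets, and 2 of the 13286 genes to which the table could be matched.

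Type-A response regulators belong to the cytokinin signalling relay. Cytokinin is sensed by histidine kinase receptors, phosphate passes through phosphotransfer proteins to type-B response regulators, which are transcription factors, and these switch on type-A genes. Type-A proteins carry a receiver domain without a DNA-binding domain and dampen the response, so their transcripts are widely used as a readout of cytokinin signalling. In leaves, cytokinin is known for delaying senescence, whereas ORE1 promotes it.

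All samples had the Col-0 background, with 2 arrays in each of 4 groups. The first group was 2-week-old whole seedlings of the estradiol-inducible line ORE1-IOE, harvested 2 h after 10 µM estradiol, and the second was seedlings of the same line and age 2 h after mock treatment with 0.1% ethanol. The third was mesophyll cell protoplasts of 5-week-old plants that had transiently expressed 35S:ORE1, a construct under a strong constitutive viral promoter, for 6 h. The fourth was protoplasts labelled WT, also of 5-week-old plants. For WT protoplasts neither a harvest time nor a mock transfection is given in the sources used here, so transfection, culture time and ORE1 cannot be told apart in that comparison. Nor is it said how many independent lines ORE1-IOE stands for, what share of protoplasts took up the construct, or whether replicates are separate plants or preparations, and the p-values may therefore measure technical spread.

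Each probe set has a log2 expression value on every array, and the systems lie on differently processed scales. Array medians were 6.71 to 6.79 in seedlings and 3.34 to 3.54 in protoplasts, and 39.8% to 41.6% of the values on a protoplast array were no more than 0.1 above its minimum. Levels are therefore compared within a system only. Controls left out, the 17388 probe sets with log2 5 or more on 2 or more arrays were tested with limma, a linear model with shared spread across probe sets, at a Benjamini-Hochberg adjusted p under 0.05. ORE1 itself has no listed probe set and was not analysed here.

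Markers fixed for the tissues gave a mixed picture. Of 6 mesophyll markers 4 have a listed probe set. In protoplasts RCA (log2 8.86 to 9.41) and LHCB4.1 (7.75 to 8.16) were well above the lowest value. LHCB4.2 (3.32 to 4.44) was much lower than these, though more than 0.1 above the lowest value on all 4 protoplast arrays. PSAN (2.20 to 4.00) was within 0.1 of the lowest value on 1 array of each group. The 4 listed markers of stomatal lineage and guard cells (SPCH, MUTE, FAMA and GC1), both of root hairs (EXPA7 and EXPA18) and the meristem marker CLV3 lay within 0.1 of the lowest value on all 4 protoplast arrays. For whole seedlings, a bulk sample, a change in the number of cells of a type and a change in RNA per cell cannot be told apart.

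ARR16 was the member that rose, and it did so in protoplasts. Its log2 value was 8.35 and 7.44 on the 2 arrays of 35S:ORE1 protoplasts, against 3.20 and 2.86 on the 2 arrays of WT protoplasts. Both 35S:ORE1 arrays thus lay far above both WT arrays, with a gap of 4.24 between the lowest 35S:ORE1 and the highest WT value. The group means were 7.90 ± 0.64 with 35S:ORE1 and 3.03 ± 0.24 in WT (SD, n = 2 arrays each).

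The difference of the means was 4.87 ± 0.33 on the log2 scale (SE, limma adjusted p = 0.000653), a 29.2-fold rise with a 95% confidence interval of 16.6-fold to 51.2-fold. It was larger than the spread between replicates, and within same-numbered arrays it was 5.15 for number 1 and 4.58 for number 2. In this comparison 3.77% of all tested probe sets were called and 3% were called higher, which is the background for 1 of the 2 members being called. The other member, ARR15, was within 0.1 of the lowest value on all 4 protoplast arrays, where no change was measurable. The shares count other tested probe sets at that level too. The WT values of ARR16 stood 1.01 and 0.68 above the lowest value of their arrays, so they were low but not at that value. ARR16 entered the test through the 35S:ORE1 arrays alone, the only 2 of 8 on which it reached log2 5, and without any filter its adjusted p was 0.00178.

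How firm the rise is depended on the arrays in the fit and on scaling. The SE rests on all 8 arrays, and with the 4 protoplast arrays fitted by themselves ARR16 did not pass (limma adjusted p = 0.0951, with the same change). After quantile normalization of all arrays the change was 3.37 ± 0.27 (adjusted p = 0.00341), which is 10.4-fold.

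**Figure D1:**
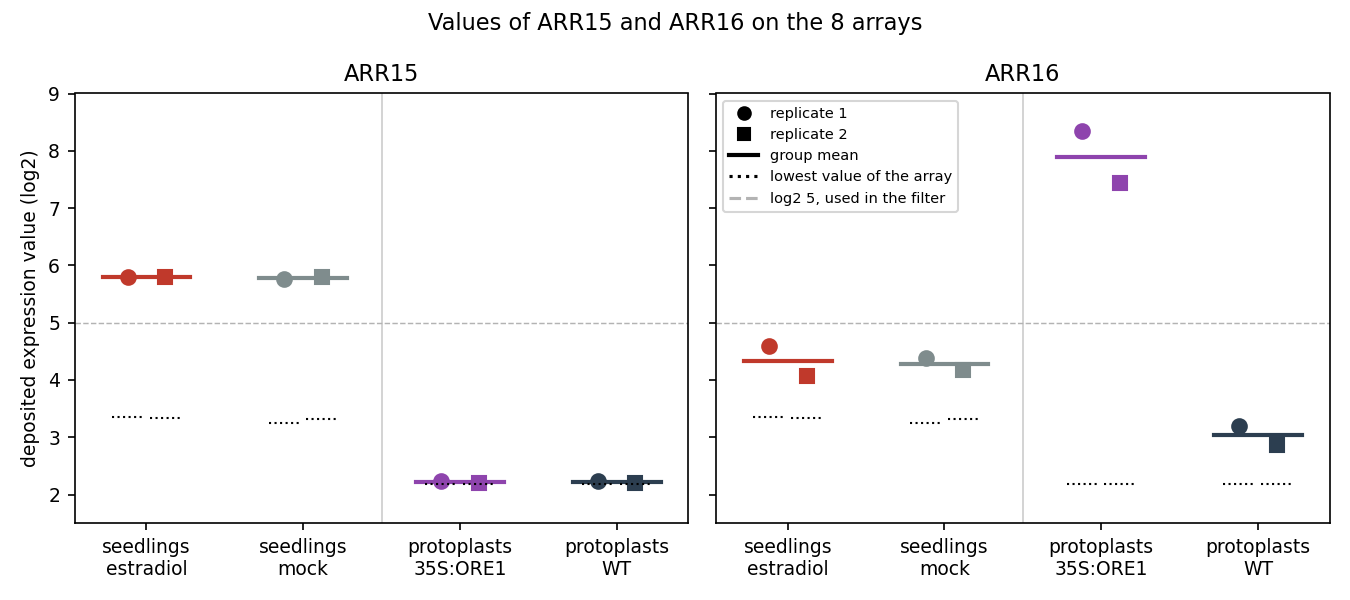
Deposited log2 value of ARR15 (left) and ARR16 (right) on each of the 8 arrays, by group, with group means as bars, replicates as circles and squares, and the lowest value of each array dotted. ARR16 lies at 8.35 and 7.44 with 35S:ORE1 and at 3.20 and 2.86 in WT protoplasts, while ARR15 sits within 0.1 of the lowest value on all protoplast arrays.

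Among the 522 probe sets that rose in protoplasts, ARR16 had the 61st largest change, above 88.3% of them, and the median rise was 1.83. Of the 276 of these with a listed gene it was number 33. All 60 tested probe sets with a larger change than ARR16 had passed the test.

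**Figure D2:**
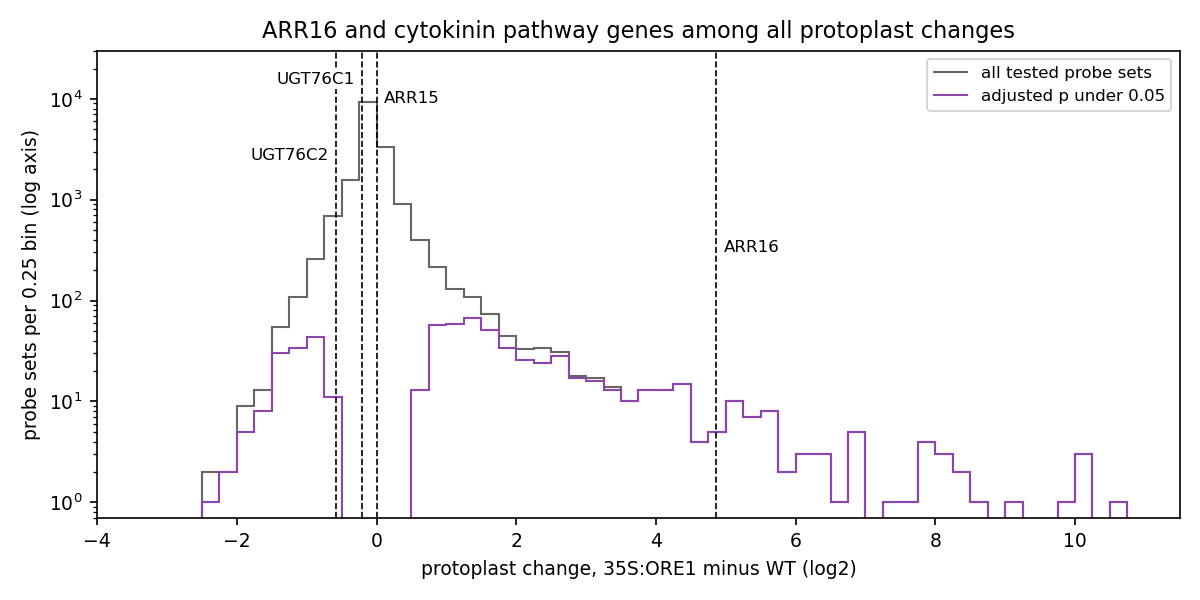
Number of probe sets (log axis, bins of 0.25) by protoplast change, 35S:ORE1 minus WT on the log2 scale, for all 17388 tested probe sets and for those with an adjusted p under 0.05, with 4 cytokinin pathway genes as dashed lines. ARR16 stands at 4.87, with 60 probe sets beyond it that were all called, and ARR15 at 0.

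The level of mesophyll and other cell markers was set beside this rise. All 4 listed mesophyll markers had lower means with 35S:ORE1, and none of them passed the test (limma adjusted p 0.635 to 1.00). Of all tested probe sets 0.771% were called lower, so that count is near the background and is no result about these markers. The sum of the log2 values of the 4 markers was 23.2 to 23.3 with 35S:ORE1 and 24.3 to 25.9 in WT protoplasts. It includes PSAN, whose groups overlapped and which was within 0.1 of the lowest value on 1 array of each group. The part of these markers in the ARR16 result was not tested. The 4 stomatal markers summed to 8.75 to 8.79 with 35S:ORE1 and 8.71 to 8.75 in WT, each of them within 0.1 of the lowest value on every array.

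In seedlings ARR16 did not pass the test. Its log2 value was 4.59 and 4.07 on the 2 arrays with estradiol, against 4.39 and 4.18 on the 2 arrays with mock treatment. The mock values lay between the estradiol values, so the groups overlapped. All 4 values were below log2 5 and stood 0.74 to 1.24 above the minimum of their array. They were also well below the seedling array medians of 6.71 to 6.79. At so low a level, the lack of a call does not show that the transcript stayed the same.

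The means were 4.33 ± 0.37 with estradiol and 4.28 ± 0.15 with mock treatment (SD, n = 2 arrays each), a change of 0.05 ± 0.33 (SE, limma adjusted p = 1.00). The same-numbered arrays gave 0.20 for number 1 and -0.10 for number 2. The 95% confidence interval of the change, -0.76 to 0.86, runs from 0.590-fold to 1.81-fold, and changes within it are not excluded with 2 arrays per group. The SE draws on the spread of the protoplast values too, and with the 4 seedling arrays fitted by themselves it was 0.22. Of all tested probe sets, 0.00575% were called in seedlings.

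The array of number 1 had the higher ARR16 value in each of the 4 groups, by 0.52 with estradiol, 0.22 with mock treatment, 0.91 with 35S:ORE1 and 0.34 in WT. The labels name no shared batch. Same-numbered protoplast arrays share their lowest value. Deviations from the group means correlated between same-numbered arrays in both systems (0.656 for seedlings, 0.787 for protoplasts). What the number stands for was not tested. With the number as a block the calls on ARR16 were the same.

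The change of ARR16 itself differed between the systems. The seedling change minus the protoplast change was -4.82 ± 0.47 on the log2 scale (SE, limma adjusted p = 0.00591, 95% confidence interval -5.96 to -3.67). By this test 1.62% of the tested probe sets differed, and 1.46% in the direction of ARR16. After quantile normalization the difference was -3.37 ± 0.39 (adjusted p = 0.0243). The call was lost without mock replicate 1 (-4.71, adjusted p = 0.0683), without estradiol replicate 2 (-4.56, adjusted p = 0.0679) and without mock replicate 2 (-4.93, adjusted p = 0.0602). Tissue, age, time, the means of raising ORE1 and the array processing are confounded with the system and cannot be told apart here.

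**Figure D3:**
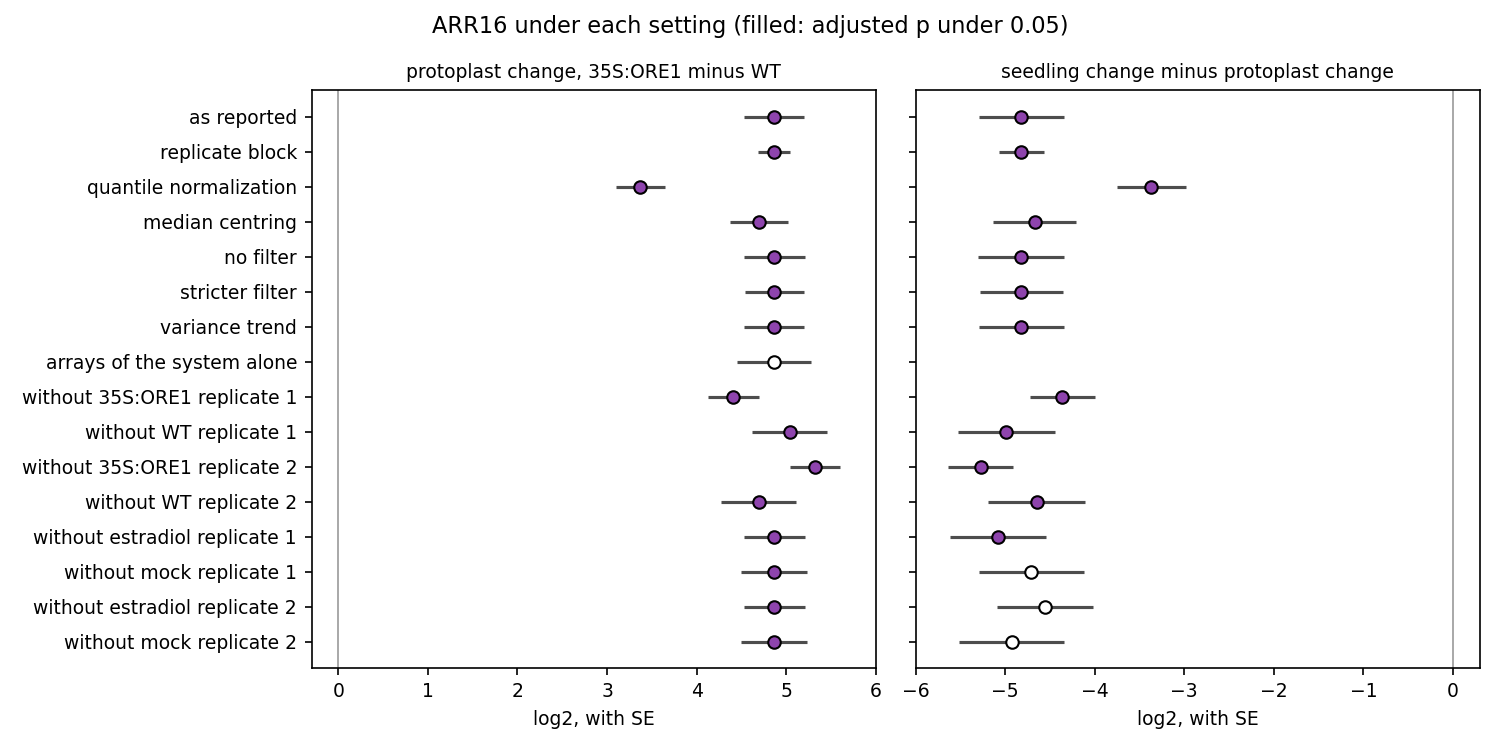
ARR16 change in protoplasts (left, 35S:ORE1 minus WT) and seedling change minus protoplast change (right), on the log2 scale with SE bars, as reported and under each alternative setting. Filled points passed the adjusted threshold, and open points are the fit to the protoplast arrays alone (4.87) and the leaving out of 3 seedling arrays (-4.56 to -4.93).

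ARR15, the other member, could be measured in seedlings only. Its log2 value was 5.79 and 5.80 with estradiol, against 5.76 and 5.80 with mock treatment. The mock values lay on both sides of the estradiol values, so the groups overlapped.

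The ARR15 means were 5.80 ± 0.0033 with estradiol and 5.78 ± 0.031 with mock treatment (SD, n = 2 arrays each), a change of 0.02 ± 0.10 (SE, limma adjusted p = 1.00). The 95% confidence interval was -0.24 to 0.27 on the log2 scale, or 0.849-fold to 1.20-fold. The SE draws on the steady protoplast values too, and with the 4 seedling arrays fitted by themselves it was 0.12.

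In protoplasts ARR15 was at the bottom of the scale. It read 2.23 and 2.20 with 35S:ORE1, against 2.23 and 2.20 in WT, and the values of same-numbered arrays were identical to the last deposited digit. They stood 0.045 (number 1) and 0.024 (number 2) above the lowest value of the array. A difference of 0 between values at this level does not show that the transcript stayed the same, only that no change was measurable there. Identical values were not limited to that level. They were found for 13464 probe sets (59.2%) of number 1 and 11101 (48.8%) of number 2, of which 4445 and 3044 stood more than 0.1 above the lowest value, so a difference of exactly 0 can also arise in the processing of the deposited values.

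The rest of the cytokinin pathway was covered sparsely. The 6 lists hold 65 genes, of which 7 are listed in the probe table and 4 were tested, ARR15 and ARR16 included. The listed genes are 2 of 10 type-A regulators, 3 of 13 type-B and type-C regulators and 2 of 17 genes of cytokinin synthesis, breakdown and transport. The receptors and phosphotransfer proteins, the cytokinin response factors and the clock's pseudo-response regulators have none.

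In protoplasts 1 of the 4 tested genes rose (ARR16) and 1 fell (UGT76C2), where 3% and 0.771% of all tested probe sets were called in those directions. In seedlings 0 of 4 passed limma's adjusted threshold, where 0.00575% of all tested probe sets did, and 0 had an unadjusted p under 0.05, against 4.13% of all. A count of 0 among 4 is thus near the background and is no result about these genes. The median change of the 4 was -0.11 in protoplasts and 0.03 in seedlings, against 0 and 0.02 for all tested probe sets.

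Among the other response regulators, ARR18 and ARR19 are of type B and ARR22 is of type C, a small group of receiver proteins set apart from both. All 3 were below log2 5 on every array and were not tested. In protoplasts they read 2.18 to 2.26 on all 4 arrays, within 0.1 of the lowest value, and same-numbered arrays with 35S:ORE1 and in WT had identical values. In seedlings their means were 4.81 with estradiol and 4.90 with mock treatment for ARR18, 4.40 and 4.38 for ARR19, and 4.53 and 4.56 for ARR22.

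UGT76C1 and UGT76C2, which lie next to each other in the genome, encode glucosyltransferases that inactivate cytokinins by N-glucosylation. UGT76C2 read 6.74 and 6.65 with 35S:ORE1, against 7.28 on both arrays of WT protoplasts, so both 35S:ORE1 arrays were lower. It fell by 0.58 ± 0.11 on the log2 scale (SE, limma adjusted p = 0.0439), with -0.53 and -0.62 within same-numbered arrays. This call was close to the threshold and was not made without each of the 8 arrays in turn (limma adjusted p = 0.0509 to 0.235), with quantile normalization (0.264), with a trend in the spread (0.126), with a stricter filter (0.0661) and in the protoplast arrays alone (0.0973).

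UGT76C1 read 3.00 and 3.40 with 35S:ORE1, against 3.08 and 3.76 in WT. These groups overlapped, with a change of -0.21 ± 0.25 (SE, limma adjusted p = 1.00). In seedlings UGT76C2 changed by 0.11 ± 0.11 and UGT76C1 by 0.0060 ± 0.25, and neither passed.

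**Figure D4:**
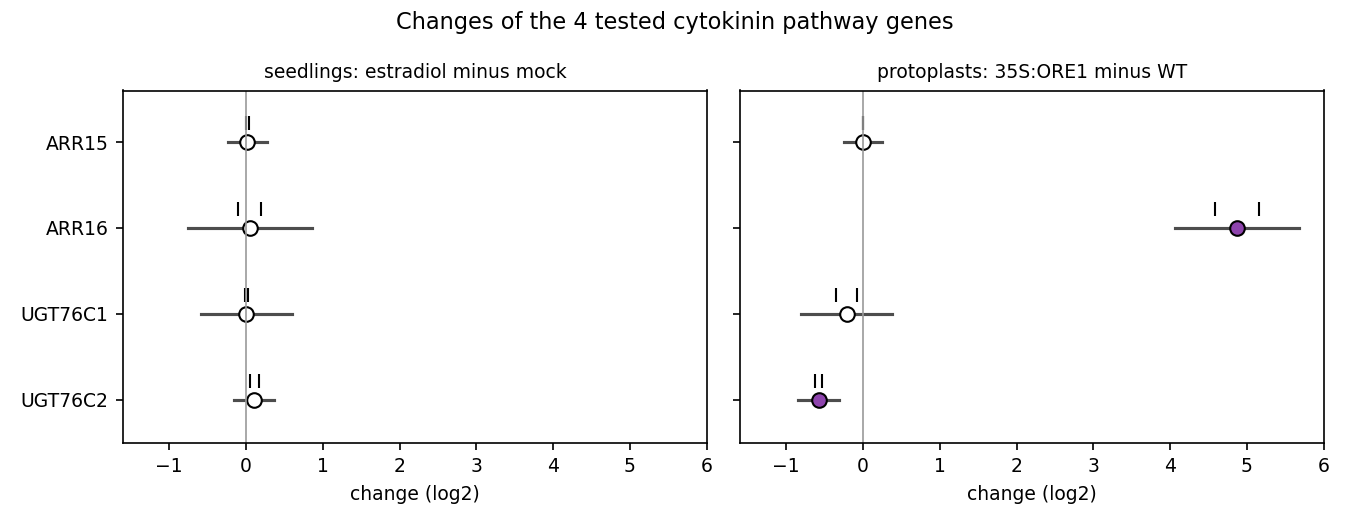
Change of ARR15, ARR16, UGT76C1 and UGT76C2 on the log2 scale in seedlings (left, estradiol minus mock) and protoplasts (right, 35S:ORE1 minus WT), with 95% confidence intervals and, above each, ticks for the 2 same-numbered pairs. Filled points passed the adjusted threshold, which in protoplasts were ARR16 (4.87) and UGT76C2 (-0.58).

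Genes with a pattern like that of ARR16 were sought among 9596 tested genes with a listed probe set. Likeness was the root mean square difference, over the 8 arrays, of log2 values after the mean of the mock or WT arrays of the same system had been subtracted. By this measure 63 genes lay within 1 of ARR16. The 8 nearest differed from it by 0.24 to 0.38, and since they were picked for this pattern their values are a description.

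The nearest was HHP2, which encodes a heptahelical transmembrane protein and was higher by 4.95 in protoplasts and by 0.03 in seedlings. AT2G15830 (4.47 in protoplasts), SWEET7 (at least 5.21), which encodes a sugar transporter of the SWEET family, AT5G23750 (5.29) and AT5G53820 (5.47) came next. AT5G20700 (5.09), AT5G47635 (at least 4.48) and AT1G11170 (4.42) completed the set. For SWEET7 and AT5G47635 both WT values were within 0.1 of the array minimum, so their protoplast changes are lower bounds on the deposited scale. In seedlings the 8 genes changed by -0.43 to 0.23.

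**Figure D5:**
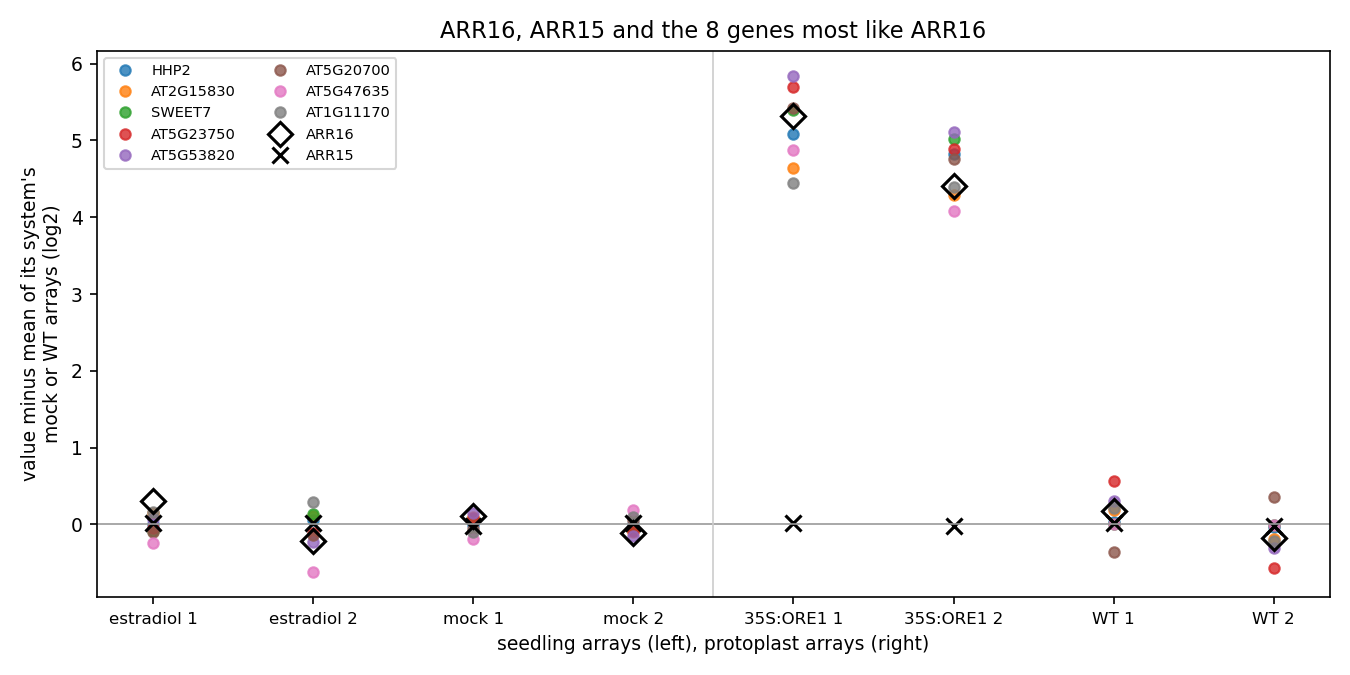
Log2 value minus the mean of the mock arrays (seedlings) or WT arrays (protoplasts) on each of the 8 arrays, for ARR16 (diamonds), ARR15 (crosses) and the 8 genes most like ARR16 (circles). The 8 genes and ARR16 stand high on both 35S:ORE1 arrays, by 4.42 to 5.47 on average for the 8. Elsewhere they lie between -0.63 and 0.56, while ARR15 is near 0 throughout.

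For ARR15 the same measure singled out little, as 9438 of the 9596 genes lay within 1 of it. The 8 nearest were AT1G61667, AT2G07200, AT5G05180, AT3G15890, AT3G42910, AT5G10580, AT1G65990 and AT1G18050, at 0.0088 to 0.013. Of these, 7 lay within 0.1 of the lowest value on all 4 protoplast arrays, as ARR15 did.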

How the data were processed

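Expression was measured on 8 one-colour Affymetrix arrays, 1 per sample. The authors deposited a log2 value for each probe set and array. Per the submitters' processing notes, GCRMA and RMA were used, without versions or a statement of which arrays had which. Probe sets were named from the platform's probe table, and gene IDs were updated through RefSeq's gene table (assembly TAIR10.1, used for names and gene order). Of 13513 probe sets with 1 gene symbol, 13436 matched a locus.

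The 4 group means were fitted to all 8 arrays with limma 3.58.1 under R 4.3.3 (functions lmFit and eBayes, two-sided tests, 4 residual and 2.25 prior degrees of freedom), with no block. Probe sets that were not controls, with log2 5 or more on at least 2 arrays, entered, and p-values were adjusted over all 17388. The fit was tested on simulated data with independent noise on every array. That simulation had no lowest value, no identical values and no deviations shared by same-numbered arrays, so it did not cover these features of the data. No exact permutation test was used, since with 2 arrays per group its smallest two-sided p is 0.333. Named were both members, every listed cytokinin pathway gene and the 8 genes most like each member. The members and lists were chosen with earlier results of these data known. Alternatives were a replicate block, quantile normalization, median centring, no filter, a stricter filter (log2 6), a variance trend, each system alone and leaving out each array. As a check of the numbering, deviations from the group means were correlated between same-numbered arrays (0.656 for seedlings, 0.787 for protoplasts), though the labels name no shared batch. The number of arrays limits the precision.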

Additional observations from a re-analysis of the deposited data

Results flagged for a closer look

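The ARR16 change differed between the systems by the test of the difference itself. The seedling change minus the protoplast change was -4.82 on the log2 scale. Within protoplasts ARR16 was at 7.90 with 35S:ORE1 and 3.03 in WT. Within seedlings it was at 4.33 with estradiol and 4.28 with mock treatment, a low level there. Levels are not compared across the systems, which lie on differently processed scales. Tissue, age, time and the means of raising ORE1 are confounded with the system too. No group has enough arrays for a search for outlying arrays.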

How the results depend on the processing

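Over 10 changes or differences of the 4 tested pathway genes, 145 values were recomputed under alternatives. Of these, 117 were counted as kept (same direction and side of the threshold), 16 lost the call and 12 turned sign without ever being called. The 117 include all 14 for ARR15 in protoplasts. Its reported change there was 0, which has no direction, and its values lay near the lowest value, so they say nothing about stability. ARR16 in protoplasts was called in all settings (3.37 to 5.32; 4.41 to 5.32 when 1 array was left out) except the protoplast arrays alone (4.87, adjusted p = 0.0951). Its difference between systems was -3.37 after quantile normalization (adjusted p = 0.0243) and ranged from -5.27 to -4.36 when 1 array was left out, with 5 of 8 such fits called. The sign of small changes was not stable. ARR15 in seedlings was -0.0070 after quantile normalization, -0.011 after median centring and -0.0061 to 0.038 when 1 array was left out. Its difference between systems was -0.0061 to 0.038 when 1 array was left out. As reported that difference equals the seedling change, since the protoplast change was 0. Median centring moved the ARR15 protoplast change to -0.17, and the difference was then 0.16. UGT76C1 in seedlings was -0.043 after quantile normalization, -0.021 after median centring and -0.014 to 0.026 when 1 array was left out. In protoplasts it was -0.56 to 0.13 when 1 array was left out. ARR16 in seedlings was then -0.21 to 0.31. ARR15 did not enter the stricter filter. In protoplasts 656 probe sets were called as reported, 1343 with the replicate number as a block (61.1% higher, against 79.6%), 374 after quantile normalization (87.7% higher), 749 after median centring (58.5% higher), 145 in the protoplast arrays alone and 376 to 528 when 1 array was left out, the lowest counts being 407 without WT replicate 1 and 376 without WT replicate 2. The difference between systems was called for 281 as reported, 487 with the block, 148 after quantile normalization and 130 to 250 when 1 array was left out (184 without WT replicate 1, 130 to 153 without a seedling array). Seedlings gave 1 call as reported, 3 after quantile normalization, and 0 with the block, with a variance trend, in the seedling arrays alone and without any 1 array (limma), where 718 had an unadjusted p under 0.05 as reported. With the block, ARR16 had an adjusted p of 0.00353 in protoplasts and 0.0140 for the difference, UGT76C2 passed in protoplasts (0.0289), and no gene call changed under it. The causes were not tested.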

Other observations

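Values of the genes beside the members are given for completeness. The neighbours were taken by position, 3 protein-coding genes on each side, after the values of the members had been seen. Beside ARR16, 4 of 6 have a listed probe set and 3 were tested, with protoplast changes, 35S:ORE1 minus WT, of 0.15 for AT2G40650, -0.08 for AT2G40660 and -0.05 for AT2G40700 on the log2 scale. Each of these 3 had identical values on 1 of its 2 same-numbered pairs of arrays, well above the lowest value. AT2G40640 lay within 0.1 of the lowest value on all 4 protoplast arrays. Beside ARR15, 4 of 6 have a listed probe set, among them OTP43 and ALDH10A8, an aldehyde dehydrogenase gene, both with identical values in both pairs. The protoplast changes of the 4 were -0.14 to 0.0013. In limma 0 of the 3 tested neighbours of ARR16 and 0 of the 4 of ARR15 were called, where 3.77% of all tested probe sets were, and 0 had an unadjusted p under 0.05, against 12.2% of all, so these counts are near the background and say nothing particular about the neighbourhood of either gene.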
